A study of Mus musculus with 8 samples.

Results

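The cathepsin genes Ctsa, Ctsb, Ctsc, Ctsd, Ctsh, Ctsk, Ctsl, Ctss and Ctsz and the inhibitor gene Cst3 were examined in atherosclerotic lesions of the mouse brachiocephalic artery. They were taken by symbol, and all 10 were found among the 24391 gene symbols of the deposited count table. The libraries came from 8 mice, 4 given an antibody against interleukin-1β (IL1_AB) and 4 given immunoglobulin G as control (IgG_Control). All were C57BL/6 animals on a Western diet for 18 weeks, described as wild type for a smooth muscle lineage tracing line. The lineage reporter, the antibody's dose and the injection schedule are not given in the sources used here. The arteries were frozen before RNA extraction, and each library holds a mixture of cell types.

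Cathepsins are proteases that are made as inactive precursors, carried to lysosomes by the mannose 6-phosphate receptors and activated in the acid interior. Most belong to the papain family of cysteine proteases; cathepsin D is an aspartic protease and cathepsin A a serine carboxypeptidase. Macrophages also secrete several of them, and secreted cathepsins K, L and S cut elastin and collagen in the arterial wall. Cystatin C, the product of Cst3, is the main secreted inhibitor of the cysteine cathepsins and does not inhibit cathepsin D or cathepsin A.

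Lysosomal genes are often preceded by the palindrome CACGTG, the core of the element bound by the transcription factor TFEB, and myeloid genes by GAGGAAGT, a form of the element bound by PU.1. Both strands of the 250 bases before each annotated start were searched (RefSeq, GRCm38.p6), where 8 of the 10 genes had at least 1 start, 9 starts in all, and Ctsb and Ctsh were not among them; no match of one motif overlapped a match of the other. CACGTG lay before a start of Ctsa, Ctsd and Ctsl, and in 6.02% of all 32851 promoters of the table. GAGGAAGT lay before Ctsc, on the opposite strand as ACTTCCTC, and in 2.44% of all promoters. The motifs were chosen after these windows had been seen, so the matches are described and not tested against all promoters. The 4 windows with a match are shown because the other member windows searched held none, with the matches in capitals. A match is a run of letters and not a measured binding site.
Ctsa (chr2:164833523-164833772, plus strand): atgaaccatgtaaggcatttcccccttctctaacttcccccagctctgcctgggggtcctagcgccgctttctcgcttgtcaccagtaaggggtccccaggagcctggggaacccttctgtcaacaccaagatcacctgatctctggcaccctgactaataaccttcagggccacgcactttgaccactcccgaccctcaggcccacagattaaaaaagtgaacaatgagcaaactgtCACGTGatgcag
Ctsd (chr7:142387828-142388077, minus strand): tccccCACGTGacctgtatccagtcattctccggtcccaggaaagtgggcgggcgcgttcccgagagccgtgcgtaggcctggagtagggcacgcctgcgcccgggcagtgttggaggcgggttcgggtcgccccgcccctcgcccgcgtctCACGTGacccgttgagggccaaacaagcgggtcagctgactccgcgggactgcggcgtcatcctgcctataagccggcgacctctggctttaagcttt
Ctsl (chr13:64370521-64370770, minus strand): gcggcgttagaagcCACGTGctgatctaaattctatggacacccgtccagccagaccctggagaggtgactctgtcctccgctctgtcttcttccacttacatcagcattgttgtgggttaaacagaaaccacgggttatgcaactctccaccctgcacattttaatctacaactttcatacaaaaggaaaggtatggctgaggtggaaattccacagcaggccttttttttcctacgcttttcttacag
Ctsc (chr7:88277835-88278084, plus strand): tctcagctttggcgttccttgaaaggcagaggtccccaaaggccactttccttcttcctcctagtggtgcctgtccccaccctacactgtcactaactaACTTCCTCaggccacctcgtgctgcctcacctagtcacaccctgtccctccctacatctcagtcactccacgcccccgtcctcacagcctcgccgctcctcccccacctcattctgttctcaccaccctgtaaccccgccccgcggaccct
The match ended 7 bases before the second of the Ctsa starts, 240 and 93 bases before the Ctsd start, 231 bases before the Ctsl start and 144 bases before the Ctsc start. No match of either motif lay in these windows of Cst3, Ctsk, Ctss or Ctsz. None lay before the first Ctsa start either (chr2:164832622-164832871, plus strand). The matched window of the second Ctsa start lies downstream of that first start.

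In the mm9 coordinates of the count table, Ctsk (chromosome 3, 95303132 to 95313309) and Ctss (chromosome 3, 95330708 to 95360327) are neighbours on the same strand with 17398 bases between them. Ctsa (chromosome 2, 164658372 to 164666532), Ctsz (chromosome 2, 174252995 to 174264493) and Cst3 (chromosome 2, 148697468 to 148701204) share a chromosome, as do Ctsc (chromosome 7, 95426603 to 95459385) and Ctsd (chromosome 7, 149561821 to 149573775). Ctsb is at 63741299 to 63764760 on chromosome 14, Ctsh at 89949105 to 89970933 on chromosome 9 and Ctsl at 64464522 to 64471614 on chromosome 13. Reads over more than 1 gene were left uncounted, which touches Ctsb, with 773 of 4743 exon bases shared with Fdft1 on the opposite strand. Ctsa shares 495 of 3626 exon bases with Pltp and 325 with Neurl2, both on the opposite strand, so the levels of Ctsb and Ctsa are understated to an unknown extent.

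The libraries held 20137336 to 29453014 counts over genes, and assigned reads made up 24.4% to 34.9% of alignments. No label names a batch. The lesion label was checked against markers: the 16 macrophage markers in the table summed to 6080 to 8837 counts scaled to CPM, the share of a library's counts multiplied up to a fixed total, in antibody lesions and 5142 to 13302 CPM in IgG lesions, and the 8 smooth muscle markers to 1476 to 3991 CPM and 2266 to 2977 CPM. The labels also name epithelial cells, but the 5 epithelial markers summed to 8.09 to 12.97 CPM in antibody and 10.1 to 35.7 CPM in IgG lesions, and Epcam and Krt5 were too low to be tested. Markers of other tissues set single libraries apart. Thymocyte markers summed to 52.5 CPM in antibody animal 2 and to 65.5 CPM in IgG animal 1, against 1.23 to 12.2 CPM in the other lesions. Adipocyte markers summed to 8702 CPM in antibody animal 3, against 3351 to 4914 CPM elsewhere, and skeletal and cardiac muscle markers to 96.2 CPM in IgG animal 2, against 6.38 to 17.5 CPM elsewhere. Thyroid markers summed to 14.5 CPM in IgG animal 4, against 2.08 to 6.73 CPM elsewhere. The 35.7 CPM of epithelial markers was in IgG animal 1. All 5 B cell markers had a fold change below 0 (median -1.79, 3 at an unadjusted p under 0.05), as had all 5 T cell markers (median -0.46) and all 5 fibroblast markers (median -0.25), while all 5 adipocyte markers were above 0 (median 0.36); 0 of these passed an adjusted p of 0.05 in edgeR. The part of these tissues in the results was not tested. In bulk tissue, fewer cells of a type and less RNA per cell cannot be told apart. Il1b transcripts were between 3.85 and 5.19 CPM in antibody lesions and between 5.88 and 14.2 CPM in IgG lesions, without overlap, but did not pass (edgeR adjusted p = 0.9997).

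Cathepsin transcripts were among the most abundant in these lesions. The 10 genes together took 1.30% to 1.67% of counts in antibody lesions and 1.03% to 2.41% in IgG lesions. Levels of different genes were compared as CPM per kilobase of exon. On that scale Ctsd, the aspartic protease, had the highest mean level, 2143 ± 279 in antibody and 2662 ± 977 in IgG lesions (SD, n = 4 each), and ranked 10 among 24391 genes. Ctsl had 1188 ± 114 in antibody and 1371 ± 663 in IgG lesions. Ctsb, an abundant lysosomal endopeptidase that also removes dipeptides, had 948 ± 127 and 1142 ± 432 in the same order of groups, and Ctss, which trims the invariant chain in antigen presenting cells, 940.4 ± 205 and 1122 ± 514. Ctsd was above Ctsl, and Ctsl above Ctsb, in all 8 lesions, whereas Ctsb was above Ctss in 5 of 8, so the order of Ctsb and Ctss is not settled by these libraries.

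Cst3 followed, with 688 ± 83.2 CPM per kilobase in antibody and 713 ± 138 in IgG lesions, and was below Ctss in 7 of 8 lesions. Ctsz, an exopeptidase, had 337 ± 41.3 in antibody and 386 ± 129.9 in IgG lesions and was below Cst3 in all 8. Ctsh, an aminopeptidase, had 129 ± 24.5 in antibody and 170.5 ± 61.9 in IgG lesions. The collagen and elastin degrading Ctsk, best known from osteoclasts, had 109 ± 8.23 in antibody and 103 ± 55.0 in IgG lesions. Ctsa had 62.3 ± 7.04 in antibody and 71.0 ± 21.0 in IgG lesions, and Ctsc, which activates serine proteases of granulocytes and mast cells, 48.7 ± 7.68 and 69.3 ± 17.3. Ctsh was above Ctsk in 7 of 8 lesions, Ctsk above Ctsa in 7 of 8 and Ctsa above Ctsc in 6 of 8. The last 4 genes ranked 354, 506, 840 and 964 among all genes.

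**Figure D1:**
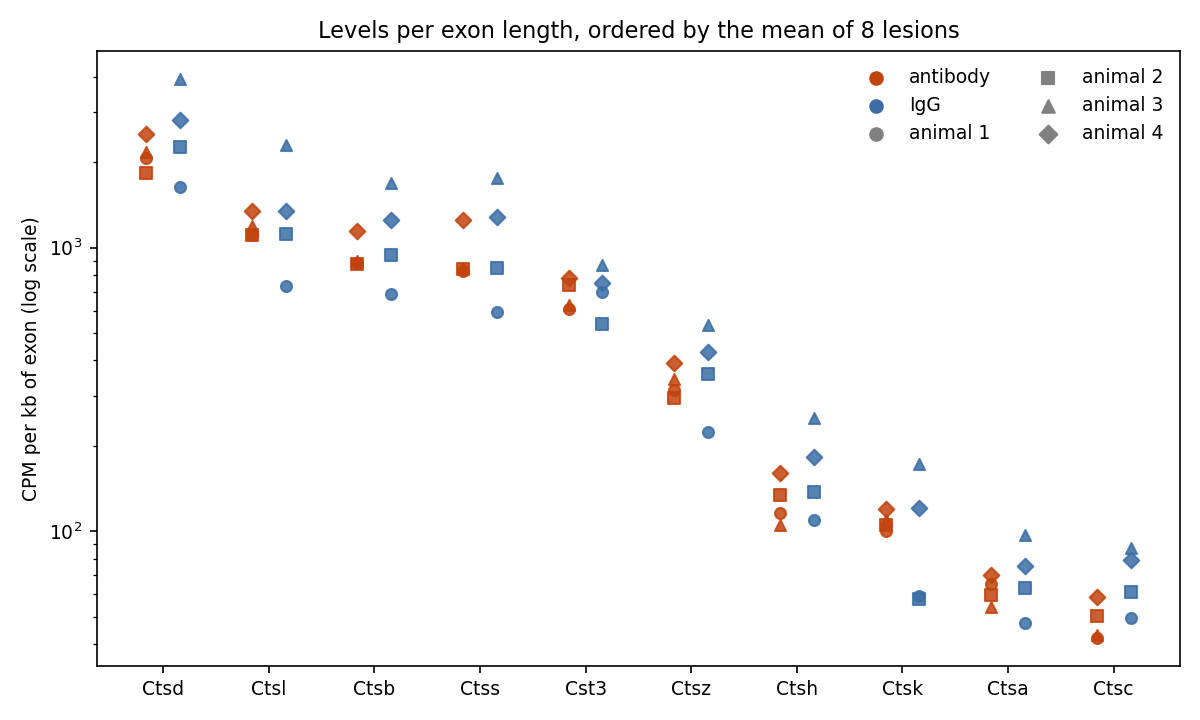
CPM per kilobase of exon on a log axis for each gene, ordered by the mean over 8 lesions, with 1 point per lesion and antibody lesions left of IgG lesions. Ctsd leads with lesions between 1633 and 3935, and Ctsc is last with lesions between 42.2 and 87.5.

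Lesions given the antibody were compared with lesions given IgG to see how cathepsin transcripts stood after IL-1β neutralisation. No member passed: in 9 of 10 the fold change was below 0, with a median log2 fold change of -0.23, but the spread among IgG lesions was wide and every pair of groups overlapped. Tested in edgeR (quasi-likelihood, adjusted by Benjamini-Hochberg over 15980 genes), 0 of 10 members had an adjusted p under 0.05, as had 0 of all genes tested (0%; by DESeq2 8 genes and by limma-voom 2, no member among them). Of all genes tested, 52.3% had a fold change below 0, and the median over all genes was -0.01. At an unadjusted p under 0.05 there was 1 member, Ctsc, which was lower, against 2.06% of all genes lower and 1.13% higher (3.19% in either direction). By limma-voom, fitted with a quality weight per library, 2 members, Ctsc and Ctsh, were lower at an unadjusted p under 0.05, against 9.31% of all genes. The edgeR split was 180 higher and 329 lower; with total counts in place of scaled library sizes the split was 285 higher and 252 lower. The groups overlapped in all 10 members, while the groups were separate in 1.96% of all genes, and in 1.25% with the antibody lesions lower.

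Ctsc had the lowest fold change of the members. It had 104, 125, 107 and 145 CPM in antibody animals 1 to 4, against 122, 151, 216 and 197 CPM in IgG animals 1 to 4. Antibody animals 1 and 3 lay below every IgG animal, and IgG animals 2, 3 and 4 above every antibody animal. The fitted log2 fold change of Ctsc was -0.51 ± 0.19 (SE), with a 95% interval from -0.94 to -0.08, an unadjusted p of 0.0251 and an adjusted p of 0.9997 by edgeR, and an exact permutation p of 0.0857 (two-sided, n = 4 each), where the design allows no p below 0.0286. Over the alternatives its adjusted p was 0.150 at the lowest. One gene whose product cathepsin C activates, Ctsg, which encodes the neutrophil serine protease cathepsin G, had at most 8 counts in a library. The mast cell protease gene Mcpt4 was detected, at 9.26 ± 1.95 CPM in antibody and 8.10 ± 2.82 CPM in IgG lesions (SD, n = 4 each).

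Ctsh had 188, 218, 171 and 261 CPM in antibody animals, against 178, 224, 408 and 296 CPM in IgG animals. For Ctsh the log2 fold change was -0.40 ± 0.25 (SE), with a 95% interval from -0.97 to 0.16 (edgeR adjusted p = 0.9997). IgG animal 1 lay within the antibody range and IgG animals 3 and 4 above it.

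In the abundant endopeptidases Ctsb, Ctsd, Ctss and Ctsl, IgG animal 1 lay below every antibody lesion and IgG animal 3 above every one. Ctsb had 4189, 4161, 4236 and 5403 CPM in antibody animals, against 3266, 4462, 8027 and 5917 CPM in IgG animals. Ctsd had 4029.7, 3592, 4229 and 4899.7 CPM in antibody animals, against 3192, 4416, 7688 and 5513 CPM in IgG animals. In both genes IgG animal 1 was the lowest of all 8 lesions and IgG animal 3 the highest, with the antibody animals between them. The log2 fold changes were -0.27 ± 0.28 for Ctsb and -0.31 ± 0.27 for Ctsd (SE). Ctss had 1124, 1143, 1151 and 1698 CPM in antibody animals, against 804, 1155, 2395 and 1747 CPM in IgG animals, and a log2 fold change of -0.25 ± 0.32. Ctsl had 2182, 2174, 2356 and 2656 CPM in antibody animals, against 1439, 2208, 4511 and 2649.9 CPM in IgG animals, and a log2 fold change of -0.21 ± 0.31. For Ctsl a single IgG lesion, animal 3, was above the antibody range.

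Ctsz and Ctsa encode carboxypeptidases, and their antibody lesions again lay within the range of the IgG lesions. Ctsz lay between 411 and 544 CPM in antibody lesions and between 312 and 744 CPM in IgG lesions, with a log2 fold change of -0.20 ± 0.24 (SE). Ctsa, which also protects neuraminidase and β-galactosidase in the lysosome, lay between 196 and 256 CPM in antibody lesions and between 173 and 353 CPM in IgG lesions, with -0.19 ± 0.21.

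Ctsk was the member with a fold change above 0, and its IgG lesions fell on both sides of the antibody lesions. It had 159, 166, 173 and 189 CPM in antibody animals, against 93.5, 91.5, 273 and 192 CPM in IgG animals. IgG animals 1 and 2 were below, and IgG animals 3 and 4 above, all 4 antibody animals. The highest antibody lesion was 1.19 times the lowest, and the highest IgG lesion 2.98 times the lowest. For Ctsk the log2 fold change was 0.08 ± 0.33 (SE), with a 95% interval from -0.65 to 0.81 (edgeR adjusted p = 0.9997), and it was negative without IgG animal 1 (-0.10) or IgG animal 2 (-0.11) and in limma-voom (-0.12).

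The inhibitor gene Cst3 had 451, 547, 465 and 578 CPM in antibody animals, against 516, 399, 645 and 555 CPM in IgG animals. The groups covered much the same range, with IgG animal 2 below and IgG animal 3 above the antibody lesions. For Cst3 the log2 fold change was -0.05 ± 0.17 (SE), with a 95% interval from -0.43 to 0.33 (edgeR adjusted p = 0.9997), the narrowest interval among the members.

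**Figure D2:**
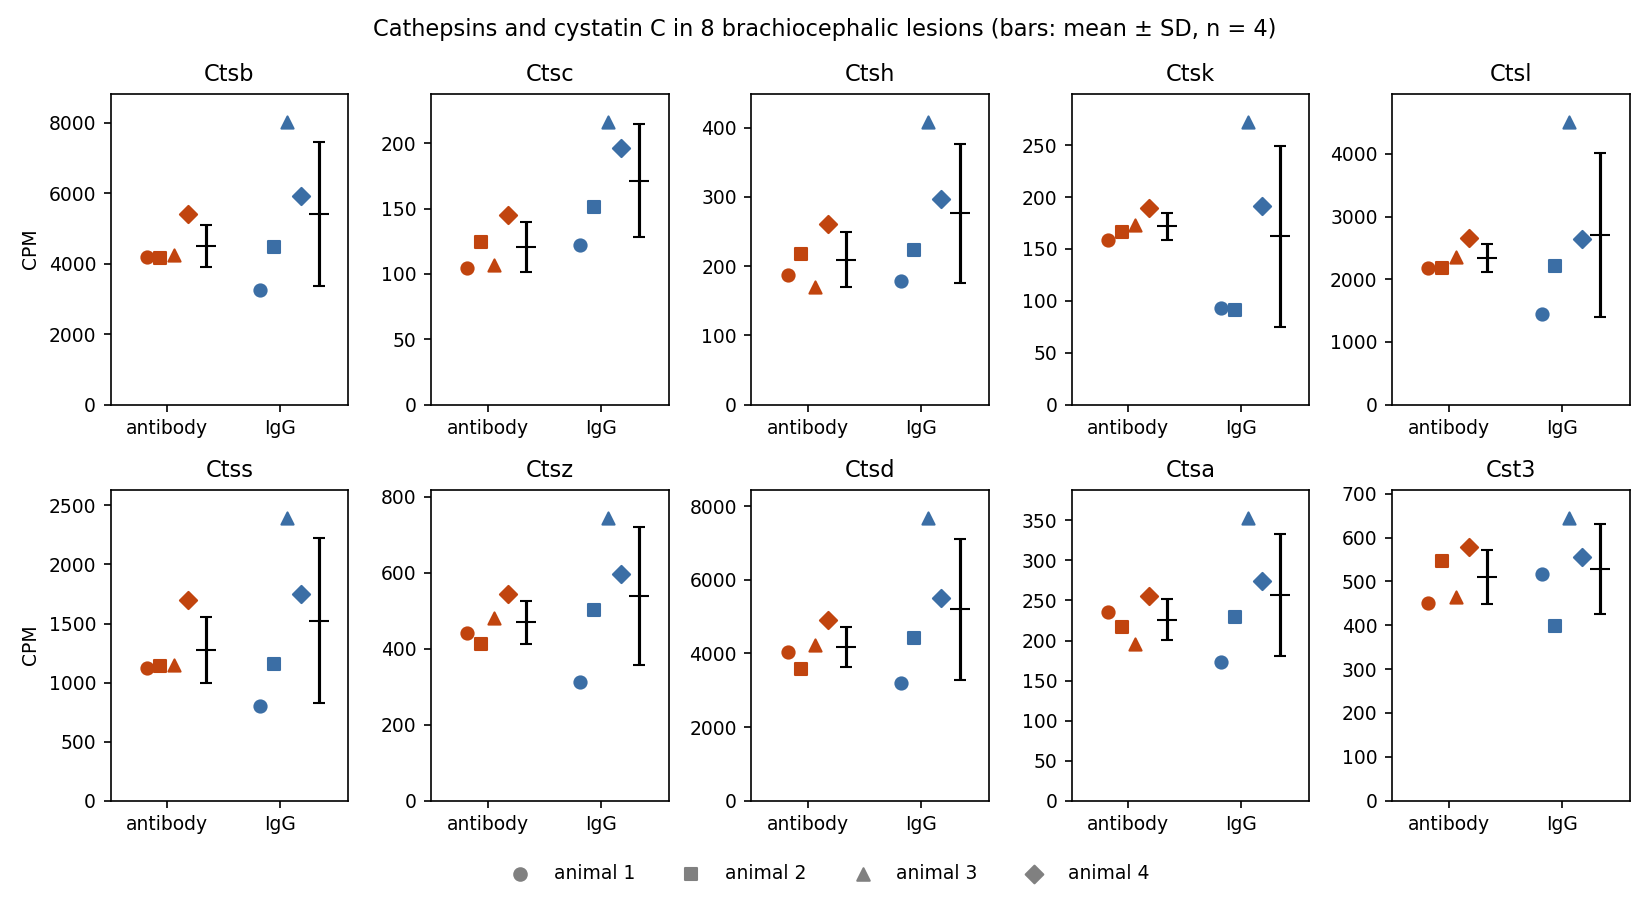
CPM of each gene in the 4 antibody lesions and the 4 IgG lesions, with a marker shape per animal number and the mean ± SD beside each group; the axes start at 0 and differ between genes. IgG animal 3 is the highest lesion in all 10 genes, at 8027 CPM for Ctsb.

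For all 10 members the 95% interval of the log2 fold change lay within 1 in either direction, as it did for 81.0% of all genes, and the bounds ran from -0.97 to 0.81. IgG animal 3 had the highest level of the 8 lesions in 10 of 10 members, against 22.3% of all genes, and IgG animal 1 the lowest in 6 of 10, against 13.5% of all genes. Among antibody lesions, animal 4 was highest in 10 of 10 members, against 21.0% of all genes. The pattern was not particular to the members. The mean log2 CPM of 7 lysosomal protease partners was highest in IgG animal 3 (8.02) and lowest in IgG animal 1 (7.12). For 24 other lysosomal hydrolase and membrane genes these were 7.67 and 6.83. In both lists animal 4 was the highest antibody lesion (7.62 and 7.30). The proton pump list was also highest in IgG animal 3 (7.50) but lowest in IgG animal 2 (6.77). In all 10 members the SD of log2 CPM was larger among IgG than among antibody lesions, as in 65.7% of all genes. Its median over the members was 0.18 in antibody and 0.53 in IgG lesions, and over all genes 0.21 in antibody and 0.27 in IgG lesions; the difference in spread was not tested.

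The fold changes moved with the animals included. Without IgG animal 3 the median log2 fold change of the members was 0.00, 5 of 10 were below 0, and none passed an adjusted p of 0.05 (edgeR). Ctsc then had -0.38, Ctsh -0.15, Ctsd -0.063, Ctsb -0.016 and Ctsz -0.0021, and Ctsa had 0.0051, Ctss 0.05, Cst3 0.059, Ctsl 0.16 and Ctsk 0.45. The other libraries set apart by thymocyte, epithelial, adipocyte, muscle or thyroid markers were also left out 1 at a time. The median was -0.19 (antibody animal 2 left out), -0.21 (antibody animal 3), -0.43 (IgG animal 1), -0.32 (IgG animal 2) and -0.20 (IgG animal 4). In that order 9, 9, 10, 10 and 9 members were below 0, with 0 members past the threshold each time.

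Macrophage markers moved with the cathepsins from lesion to lesion. All 16 markers tested had a fold change below 0 (median -0.34), 0 of them past an adjusted p of 0.05. The mean log2 CPM of these 16 markers, used as a macrophage score, was 7.31, 7.34, 7.19 and 7.68 in antibody animals and 7.14, 7.55, 8.12 and 7.96 in IgG animals. It too was lowest in IgG animal 1 and highest in IgG animal 3. Across the 8 lesions Ctsh followed the score most closely (Pearson's r = 0.97, exact permutation p = 4.960e-05, adjusted p = 9.921e-04; Spearman's rho = 0.98, exact permutation p = 3.968e-04, adjusted p = 0.00794, n = 8). For Ctsa, Ctsb, Ctsc, Ctsd, Ctss and Ctsz Pearson's r lay between 0.90 and 0.95 (exact permutation, adjusted p at most 0.00312) and Spearman's rho between 0.88 and 0.93 (adjusted p at most 0.0207). Ctsl had r = 0.84 (exact permutation p = 0.00159, adjusted p = 0.00397) and rho = 0.81 (exact permutation p = 0.0218, adjusted p = 0.0544). Without the 2 lesions farthest from the median score, IgG animals 3 and 4, r was 0.94 for Ctsh, 0.67 for Ctsl and between 0.75 and 0.86 for those 6 genes. The share of all tested genes that follow the score as closely was not computed. The relation is therefore not shown to be particular to the cathepsins.

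Ctsk and Cst3 did not show this relation beyond the threshold. Ctsk had r = 0.63 (exact permutation p = 0.0949, adjusted p = 0.211) and rho = 0.69 (exact permutation p = 0.0694, adjusted p = 0.154), and r was 0.17 without IgG animals 3 and 4. Cst3 had r = 0.59 (exact permutation p = 0.128, adjusted p = 0.256) and rho = 0.64 (exact permutation p = 0.0962, adjusted p = 0.192), and r was 0.09 without them. Against a score of the 8 smooth muscle markers, r ranged from -0.09 to 0.32 for the cathepsins and was 0.55 for Cst3 (exact permutation p = 0.150, adjusted p = 0.273; rho = 0.62, exact permutation p = 0.115, adjusted p = 0.209), and r for Cst3 was 0.62 without antibody animals 2 and 3. Adjustment covered the 20 relations computed, 10 genes against 2 scores. The lesions share the treatment groups and library scaling, and a group of 4 is too small for a relation within it.

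**Figure D3:**
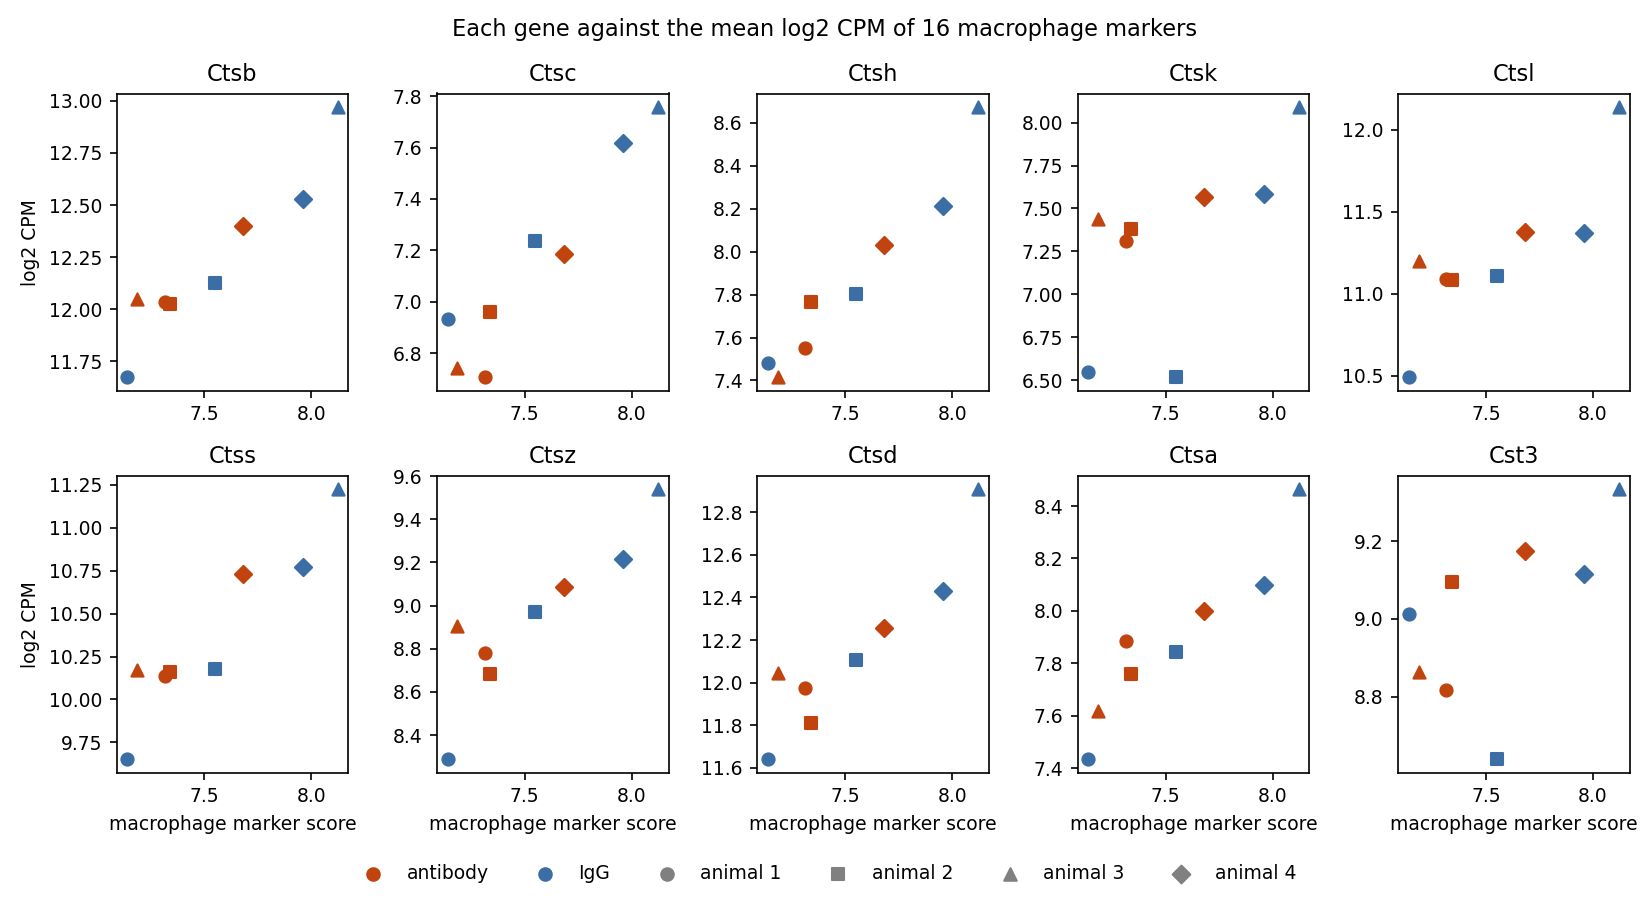
Log2 CPM of each gene against the mean log2 CPM of 16 macrophage markers, 1 point per lesion, coloured by treatment with a marker shape per animal number. Ctsh follows the score (r = 0.97), while in the Ctsk panel IgG animals 1 and 2, at 93.5 and 91.5 CPM, lie below the other lesions.

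With the macrophage score as a covariate in the edgeR fit, 9 of 10 members had a fold change above 0 (50.9% of all genes did) and the median log2 fold change was 0.15, against 0.00 over all genes. Ctsk had 0.66 ± 0.21 (SE, unadjusted p = 0.0140) and Ctss 0.31 ± 0.13 (unadjusted p = 0.0424), the 2 members higher at an unadjusted p under 0.05, as were 1.36% of all genes. Ctsc, at -0.22 ± 0.10 (unadjusted p = 0.0529), was the member still below 0. No member, and 0% of all genes, passed an adjusted p of 0.05 in this fit. What part the macrophage markers have in the fold changes was not tested.

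**Figure D4:**
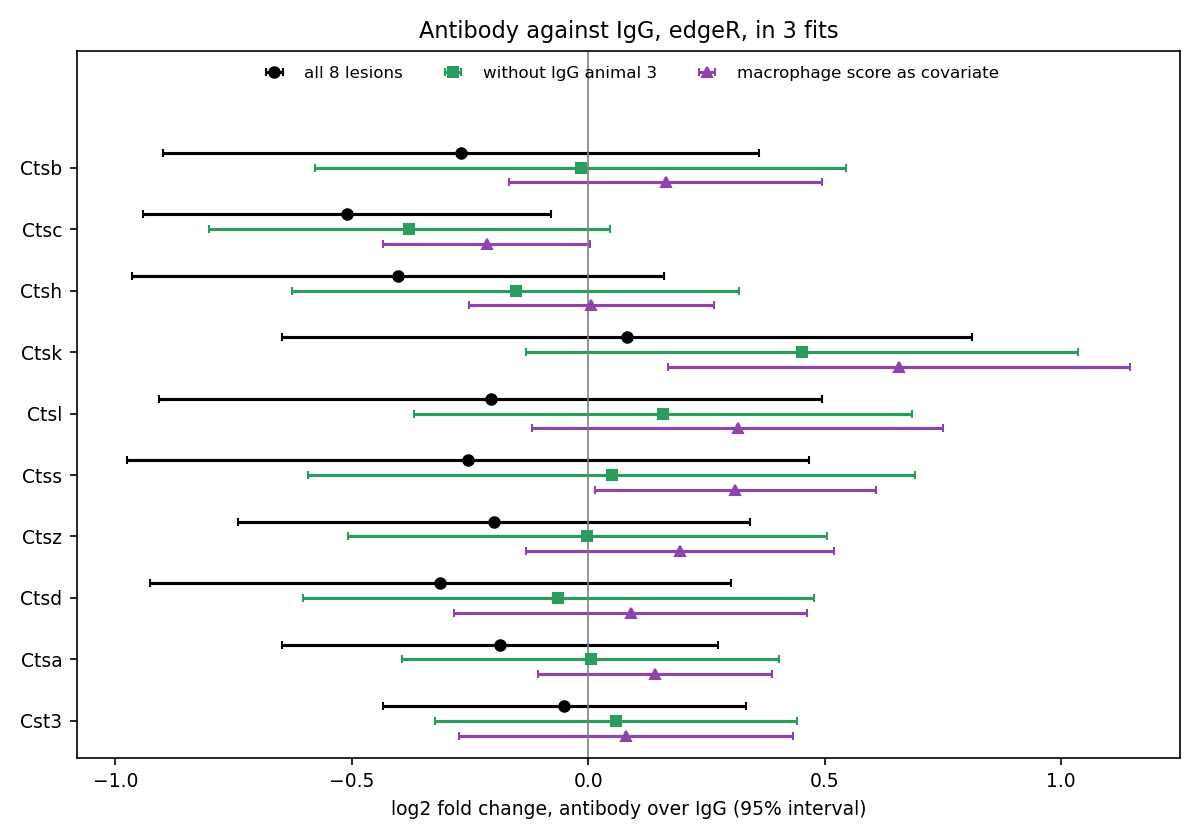
Log2 fold change of antibody over IgG with its 95% interval for each gene from edgeR, in the fit of all 8 lesions, without IgG animal 3, and with the macrophage score as covariate. In the fit of all lesions the points run from -0.51 for Ctsc to 0.08 for Ctsk, and with the covariate from -0.22 for Ctsc to 0.66 for Ctsk.

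Within a lesion, ratios between members do not depend on library scaling. Of the 45 pairs of members, 5 had log2 ratios whose groups did not overlap, and 4 of these involved Ctsk. These 4 pairs are not independent. They share the Ctsk values, and their other genes, Ctsb, Ctsc, Ctsd and Ctsh, correlated with each other at r from 0.83 to 0.98. Ctsk per Ctsc, on the per kilobase scale, was 2.38, 2.09, 2.53 and 2.03 in antibody animals, against 1.20, 0.947, 1.97 and 1.52 in IgG animals. Every antibody lesion was above every IgG lesion. As Ctsc over Ctsk in CPM, without division by length, the mean log2 ratio was -0.52 ± 0.15 in antibody and 0.20 ± 0.45 in IgG lesions (SD, n = 4 each). The difference, which does not depend on length, was -0.73 (exact permutation p = 0.0286, the smallest possible, and 0.257 adjusted over 45 pairs). The differences for Ctsh, Ctsd and Ctsb over Ctsk were -0.59, -0.49 and -0.44, and that for Ctsa over Ctsc was 0.34, each with the same exact permutation p and the same adjusted p of 0.257. None passed after adjustment, and the pairs were examined after the values of the members had been seen. For comparison, the ratio of Ctsk to any other tested gene had groups without overlap for 0.992% of genes, and that of Ctsc for 7.64%. No such share was computed over all pairs of tested genes. Ctsk per Ctss, its neighbour on chromosome 3, was 0.121, 0.125, 0.129 and 0.0958 in antibody animals, against 0.1000, 0.0680, 0.0978 and 0.0943 in IgG animals, and these overlapped through antibody animal 4 and IgG animals 1 and 3.

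Cst3 was set against the 7 cysteine cathepsins among the members, Ctsb, Ctsc, Ctsh, Ctsk, Ctsl, Ctss and Ctsz, summed per kilobase. Its level was 17.9%, 21.6%, 17.7% and 17.4% of their sum in antibody animals, against 28.4%, 15.2%, 12.8% and 15.95% in IgG animals. The antibody lesions lay close together, and the IgG lesions on both sides of them. The log2 ratio of Cst3 to single cathepsins differed between the groups by -0.28 for Ctsk and by 0.45 for Ctsc, with overlapping groups for all 7. These are ratios of transcripts and not of protein or enzyme activity.

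**Figure D5:**
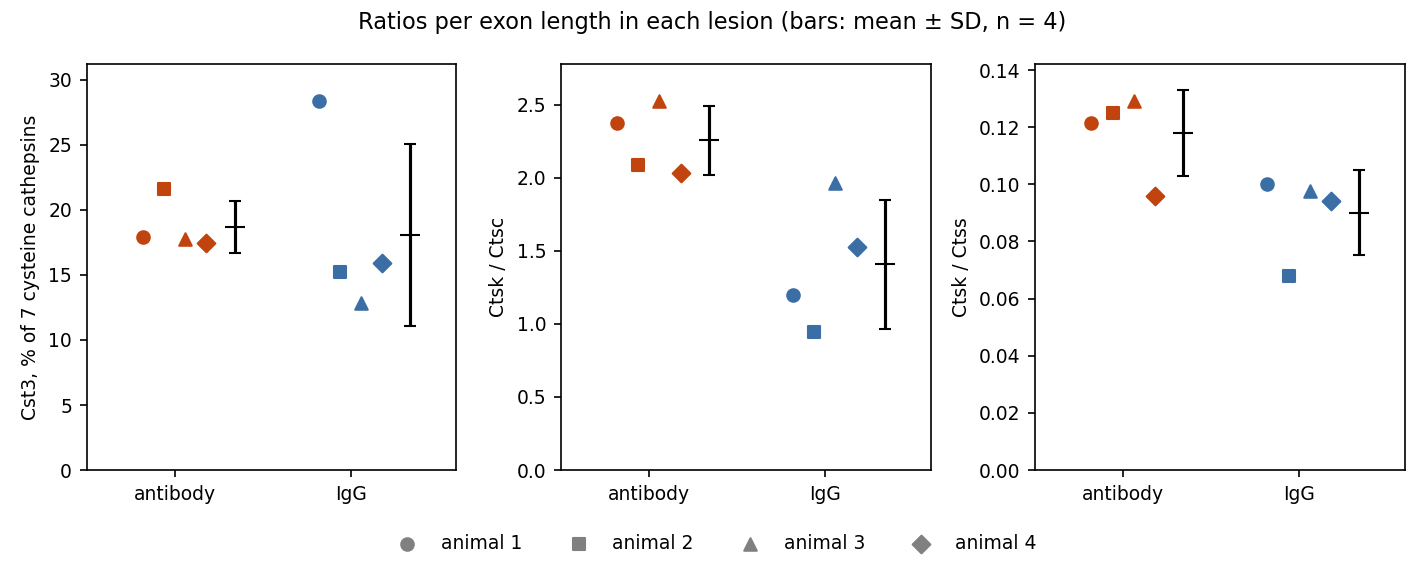
Cst3 as a percent of the 7 cysteine cathepsins, Ctsk over Ctsc and Ctsk over Ctss in each lesion, all per exon length, with antibody left of IgG and the mean ± SD beside each group. Ctsk over Ctsc is at least 2.03 in antibody lesions and at most 1.97 in IgG lesions.

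The cathepsins varied together across lesions. Over the 8 libraries, Pearson's r of log2 CPM between pairs of cathepsins had a median of 0.93 over 36 pairs, with a range from 0.45 to 0.99, and between Cst3 and the 9 cathepsins a median of 0.58, whereas over all pairs of tested genes the median was -0.01. Without IgG animal 3 the medians were 0.85 for pairs of cathepsins (range 0.10 to 0.99) and 0.32 for Cst3 with the cathepsins, and that over all pairs of tested genes was 0.00. These values describe libraries that share treatment groups and scaling. Among all tested genes, those most like Ctsb in r over the 8 libraries were the macrophage lysosomal gene Cd68, Lgmn, which encodes the protease legumain that processes several cathepsins, and Gusb, a lysosomal hydrolase gene (all at 0.99). Ctss was most like Cd68, Gusb and Lgals3 (0.99 each), and Ctsl most like Lipa, which encodes lysosomal acid lipase, Atp6v0d2, a subunit of the proton pump, and Creg1 (0.98 to 0.99). Ctsz was most like Sgk1, Psap and Tlr6 (0.99 each), and Ctsd like Gngt2, Ctsb and Fli1 (0.98 each). For Ctsk the closest genes were Blvra, Lrrc58 and the proton pump gene Atp6v1c1 (0.98 each). Ctsc was closest to the leukocyte genes Ptprc and Cxcr4 and to Elovl1 (0.98 each), Ctsh to Glipr1, Rpl12 and Gnb2l1 (0.99 each), Ctsa to Gpr35, Surf4 and Gdf15 (0.99 each), and Cst3 to Nxt2, Sfr1 and Ier3ip1 (0.99 each). These are the 3 highest of many r values per member, each from 8 libraries. Values this high were reached for every member, Cst3 included, and were not tested, so they do not show a shared function.

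The other cathepsin genes were at lower levels than the 9 described: the highest, Ctsf, averaged 20.3 CPM per kilobase over the 8 lesions, and Ctsc 59.0. Of 14 other cathepsin genes, 4 passed the low-count filter, and 5 (Cts8, Ctsj, Ctsm, Ctsq and Ctsr, known from the mouse placenta) had no count in any library, where a count of 0 allows up to 3 counts per library. Ctsf had 42.0 ± 2.78 CPM in antibody and 38.1 ± 2.83 CPM in IgG lesions (SD, n = 4 each), with a log2 fold change of 0.14 ± 0.10 (SE). Ctso had -0.14 ± 0.16 and Ctsw, a gene of cytotoxic lymphocytes, -0.25 ± 0.26. Of 15 other inhibitor genes, 5 passed the filter. Per kilobase, the intracellular inhibitor gene Cstb averaged 142 CPM over the 8 lesions, above Ctsk at 105.6. Cstb, at 76.9 ± 15.2 CPM in antibody and 94.1 ± 35.5 CPM in IgG lesions, had -0.29 ± 0.25, Ctla2b -0.27 ± 0.19 and Cst7 0.47 ± 0.37. With edgeR, 0 of these 9 genes passed an adjusted p of 0.05.

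Genes that serve cathepsins in the lysosome gave small fold changes, and 0 of the 86 genes tested over all 9 lists, those 9 genes included, passed an adjusted p of 0.05 (edgeR). All 7 lysosomal protease partners were below 0 (median -0.19), with Lgmn at -0.26 ± 0.27 (SE), Dpp7 at -0.21 ± 0.16 and Glb1, the β-galactosidase held in a complex by cathepsin A, at -0.19 ± 0.19. Of the 24 other lysosomal hydrolase and membrane genes 21 were below 0 (median -0.16), with Hexa at -0.30 ± 0.26 and Arsa at -0.12 ± 0.10, while Smpd1, the acid sphingomyelinase gene, had 0.22 ± 0.11. In the mannose 6-phosphate sorting list 7 of 9 were below 0 (median -0.06), with the sorting receptor gene Sort1 at 0.18 ± 0.12 and Nagpa at -0.20 ± 0.14. In the proton pump list 12 of 16 were below 0 (median -0.05), with Atp6v1e1 at 0.23 ± 0.16. All 6 transcription factor genes were below 0 (median -0.11), with Spi1, which encodes PU.1, at -0.25 ± 0.16 and Tfec at -0.29 ± 0.24.

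Among substrates and matrix genes all 9 were below 0 (median -0.29). Cd74, the invariant chain cut by cathepsin S, had 361 ± 59.3 CPM in antibody and 564 ± 145 CPM in IgG lesions (SD, n = 4 each) and a log2 fold change of -0.64 ± 0.21 (SE, unadjusted p = 0.0141, edgeR adjusted p = 0.9997). Col3a1 had -0.52 ± 0.30 and Col1a1 -0.47 ± 0.33. In the osteoclast-like list, to which Ctsk is often assigned, 5 of 6 tested genes were below 0 (median -0.13). Dcstamp, needed for fusion of osteoclasts, had 1.87 ± 0.407 CPM in antibody and 13.2 ± 7.54 CPM in IgG lesions, a log2 fold change of -2.81 ± 0.42 that did not pass in edgeR (adjusted p = 0.355) and was called by DESeq2. Itgb3 and Tnfrsf11a had 0.20 ± 0.14 and -0.14 ± 0.12.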

How the data were processed

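RNA sequencing libraries of 8 lesions were used, grouped by the sample titles. The authors counted reads over exons per gene symbol with featureCounts 1.4.6-p4 on the UCSC mm9 annotation, per the file headers, and deposited raw counts with exon lengths and a status table; the header shows no option for strand or read pairs, so reads of antisense transcripts count for a gene. Reads placed at several sites (35.2% to 48.0% of alignments) or over several genes were left uncounted, so near-identical copies are under-counted. The submitters' processing notes also name CASAVA, STAR 3.0, Subread and DESeq2, with no role.

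From the deposited counts, genes kept by filterByExpr (minimum count 10, minimum total 15; 15980 genes) were scaled by TMM and tested with edgeR 4.0.16 (quasi-likelihood, robust) in R 4.3.3, on treatment alone, adjusting p over all genes kept. CPM used TMM-scaled library sizes, and log2 CPM a prior count of 2. Positive fold changes mean higher with antibody. Exact permutation tests were two-sided, over 70 assignments or, for correlations, 40320 pairings (scipy 1.17.1). Alternatives were DESeq2 1.42.0 on the same genes, other scalings, no filter, a replicate block, a covariate and leaving out each animal. A further alternative was limma-voom (limma 3.58.1), fitted with a quality weight per library. The edgeR steps were run on simulated counts with 1 setting of spread for all genes and both groups. That run checks the code and not its performance on these lesions. Of the genes named, all members were named; each list gave up to 3 genes with the smallest p, and each member the 3 genes most like it, leaving out unnamed gene models. The members, lists and tests were chosen with earlier results of these data known, and the motifs after the promoter windows had been seen. Nothing states more than 1 animal per library, and p-values measure the spread between animals.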

Additional observations from a re-analysis of the deposited data

Results flagged for a closer look

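Among antibody lesions, animal 4 stood apart in 2 members and in the members' summed share. Ctsb had 5403 CPM in animal 4, against 4189, 4161 and 4236 CPM in the other antibody animals, and the gap to the nearest was 0.939 of the group's range, above Dixon's critical value at the 95% level. Ctss had 1698 CPM in animal 4, against 1124, 1143 and 1151 CPM, with a gap of 0.953 of the range. The 10 members together took 1.67% of counts in animal 4, against 1.33%, 1.34% and 1.30%, with a gap of 0.882. These 3 flags came from 22 groups of 4 values examined, of which chance flags about 1 in 20; the values of 1 animal are not independent of each other. The macrophage score was also highest among antibody lesions in animal 4, at 7.68; its part was not tested. Without antibody animal 4 the log2 fold changes were -0.37 for Ctsb and -0.42 for Ctss.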

How the results depend on the processing

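In all 15 alternatives 0 members passed an adjusted p of 0.05. Over all genes DESeq2 called 8 and limma-voom 2, and leaving out 1 animal gave 0 to 1; in the pathway lists DESeq2 called 1 gene, Dcstamp. Leaving out 1 animal gave 5 to 10 members below 0 and a member median between -0.43 and 0.00. With the macrophage score as covariate, 1 member was below 0, and the sign turned for Ctsa (0.14), Ctsb (0.16), Ctsd (0.090), Ctsh (0.0064), Ctsl (0.32), Ctss (0.31), Ctsz (0.19) and Cst3 (0.080). It turned for Ctsk in limma-voom (-0.12), without IgG animal 1 (-0.10) and without IgG animal 2 (-0.11); for Ctsa (0.0051), Ctsl (0.16), Ctss (0.050) and Cst3 (0.059) without IgG animal 3; and for Cst3 (0.0055) without antibody animal 1. Leaving out each animal in turn, the log2 fold change ranged from -0.33 to 0.0051 for Ctsa, -0.44 to -0.016 for Ctsb, -0.64 to -0.38 for Ctsc, -0.48 to -0.063 for Ctsd, -0.56 to -0.15 for Ctsh, -0.11 to 0.45 for Ctsk, -0.41 to 0.16 for Ctsl, -0.46 to 0.050 for Ctss, -0.38 to -0.0021 for Ctsz and -0.17 to 0.059 for Cst3. The cause was not tested. The Ctsb to Cst3 ratio of mean levels was 1.49 per length and 9.54 without division by length, by construction. Replicate numbers are shared by the groups, and the labels do not say whether same-numbered lesions share anything else. Deviations of same-numbered lesions correlated at 0.29, -0.34, -0.13 and -0.0012, and those of differently numbered lesions at -0.52 to 0.46. So few values cannot tell whether the lesions were paired. With the replicate block in edgeR 0 members passed and 361 genes had an unadjusted p under 0.05, against 509 without it. No pathway list gene passed in the edgeR alternatives. Without IgG animal 3, an alternative chosen after seeing the data for this value, the median r between cathepsins was 0.85, against 0.93 with it.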
